A study of Homo sapiens with 6 samples.

Results

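The factors described here are proteins that build ribosomes without being part of the finished particle. They were taken from a list of 59 human genes, and each gene was read by the single-gene probe set with the highest mean log2 value over the 6 arrays. Of the 59, 56 had such a probe set and 55 were bright enough to be tested, among 12198 genes tested in all. EBNA1BP2, GNL3 and DDX18 are not analysed here. UTP14A, which activates a helicase of the small-subunit precursor, stayed below the intensity filter of 33.8, with values of 15.36 and 17.59 in low-Myc, 14.92 and 20.24 in mid-Myc and 32.97 and 24.9 in high-Myc, and was not tested.

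Ribosome assembly starts in the nucleolus, where RNA polymerase I makes a long precursor RNA. Small nucleolar RNPs of the box C/D and H/ACA classes guide its ribose methylation and pseudouridylation. Large complexes then fold and cut the precursor along separate small-subunit and large-subunit routes, and export factors and late cytoplasmic factors finish each particle. Many genes of this machinery are textbook targets of c-Myc, a transcription factor that binds the E-box element CACGTG together with its partner MAX.

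The cells were of the human line P493-6, labelled a B-cell lymphoma and grown in RPMI medium with FBS, whose c-Myc transgene is kept silent by tetracycline. All 3 groups carried this transgene and differed in the time since its release, which was 0 hours in low-Myc, 1 hour in mid-Myc and 24 hours in high-Myc, with 2 arrays each. The labels call the arrays biological duplicates. The protocol fields for mid-Myc disagree, with 0 hours in the growth text and 1 hour in the treatment text, and 1 hour was taken because a moderate c-Myc level is stated for these cells. All groups are 1 cell line, and changes that follow c-Myc cannot be told apart from any that follow the withdrawal of tetracycline. The mid-Myc arrays are numbered apart from the others in the sample list, and if they were made separately, a batch difference and a change at 1 hour cannot be told apart.

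Total RNA was labelled from 3′ ends and hybridised to 1-colour Affymetrix arrays, with ERCC synthetic RNAs added according to cell number. Intensities are given below as deposited, and changes are given as log2 differences on 2 scales. The equal-median scale sets the median human probe set of every array to 0. Those medians were 49.75 and 50.25 in low-Myc and between 44.54 and 45.74 elsewhere, so a gene of equal deposited intensity lies slightly higher in mid-Myc and high-Myc on this scale. The per-cell scale subtracts a curve fitted to the 100 ERCC probe sets on each array, so a value refers to an equal number of cells. The median ERCC intensity fell from 82.96 and 74.35 in low-Myc to 61.62 and 60.01 in mid-Myc and 37.86 and 37.19 in high-Myc. Per cell, the median of all tested genes therefore rose by 0.30 in mid-Myc and by 0.98 in high-Myc. The duplicates of a member differed by a median of 0.087 log2 at 0 hours, 0.059 at 1 hour and 0.076 at 24 hours, and the widest pair was GAR1 at 24 hours with 0.608. A member counts as higher or lower where limma gave a Benjamini-Hochberg adjusted p under 0.05 over the 12198 genes. Such p-values rest on a spread borrowed across genes, since with 2 arrays per group the smallest p of an exact permutation test is 0.333.

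MYC itself was read by 1 bright probe set, at 10472 and 10279 in low-Myc, 10031 and 9941 in mid-Myc and 11888 and 11979 in high-Myc. Its change on the equal-median scale was 0.10 at 1 hour and 0.34 at 24 hours. Per cell the change was 0.13 and 0.96, where the medians of all tested genes were 0.30 and 0.98. Whether the probe set reads the transgene is not stated in the sources used here. In the deposited values MYC was lower in mid-Myc than in low-Myc, and its order followed the group names only after scaling. Of the 8 B cell markers listed, 7 were on the array and all were above the filter, with a summed intensity of 25900 to 26070 in low-Myc, 26650 to 27500 in mid-Myc and 17400 to 17520 in high-Myc. The 8 T and NK cell markers summed to 359 to 383.4, 325.8 to 342.7 and 253.3 to 271.1 in the same order, and no mean of theirs exceeded 65.85. The 6 myeloid and erythroid markers summed to 1384 to 1391, 1382 to 1435 and 524.6 to 559.3, most of it from LYZ. All these sums of deposited intensities were lowest in high-Myc, the group in which the biogenesis factors were highest. Per cell the direction turned for the first pair of lists. By 24 hours 5 of 7 B cell markers and 4 of 5 tested T and NK cell markers were higher, where 91.0% of all genes were. Their medians were 0.30 and 0.41 log2 against 0.98 for all genes. Whether these shifts play a part in the results below was not tested.

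Because the c-Myc binding element is short, its place in the promoters of these genes can be shown directly. RefSeq windows of 300 bases on GRCh38.p14, from 250 bases before to 50 bases after an annotated start, were matched by symbol for 49 of the 55 tested members. BOP1, NOLC1, NOP58, RRP12, RRP1B and RRS1 were not matched. CACGTG, which reads the same on both strands, stood in a window of 18 of the 49 members (36.7%), against 12.5% of the 9953 tested genes with a window. Most of the difference in share lay after the start. There 12 members (24.5%) held the element, against 155 tested genes (1.56%), while before the start the shares were 12.2% and 11.1%. With the first listed window of each gene alone, 22.4% of members and 1.21% of tested genes held it after the start. The related hexamer CACGCG, searched on both strands, was less uneven, in 28.6% of members and 21.6% of tested genes. These shares describe letters in a window and not binding, and the members were chosen with earlier results of these data known.

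The 12 stretches with a match after the start are printed because they carry that difference, 30 bases each, 5′ to 3′ on the gene's strand, with CACGTG in capitals. The number before each colon is the position of its first C, counting the annotated start as base 1. The table used gives no exon limits, so only the start is annotated here.
GAR1, chr4:109815781-109815810, plus strand, base 32: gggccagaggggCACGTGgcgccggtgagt
FBL, chr19:39846356-39846385, minus strand, base 7: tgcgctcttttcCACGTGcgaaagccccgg
GNL2, chr1:37595917-37595946, minus strand, base 4: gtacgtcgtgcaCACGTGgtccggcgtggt
MRTO4, chr1:19251807-19251836, plus strand, base 15: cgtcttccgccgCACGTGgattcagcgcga
NOC3L, chr10:94362903-94362932, minus strand, base 20: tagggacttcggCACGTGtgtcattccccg
NOP2, chr12:6568242-6568271, minus strand, base 36: gctaggtccggattgCACGTGgagggccgc
PES1, chr22:30591880-30591909, minus strand, base 14: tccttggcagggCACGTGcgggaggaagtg
BYSL, chr6:41921515-41921544, plus strand, base 29: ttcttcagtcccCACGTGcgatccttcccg
LTV1, chr6:143843354-143843383, plus strand, base 29: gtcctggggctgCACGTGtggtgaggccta
PNO1, chr2:68157885-68157914, plus strand, base 10: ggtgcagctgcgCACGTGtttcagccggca
UTP18, chr17:51260538-51260567, plus strand, base 5: gcagcgaggttcCACGTGagcgcctgcgtt
WDR43, chr2:28894658-28894687, plus strand, base 4: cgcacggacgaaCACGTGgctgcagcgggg

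They come from 5 small-subunit factors, 5 large-subunit factors and 1 core protein of each snoRNP class, and the bases around the shared core differ from gene to gene. Of the other 6 members with the element, NOP10, DDX21, LYAR, UTP20 and UTP4 held it before the start only, and in RRP9 the match begins at base -5 and runs across the start. The 18 members with the element had a median change of 1.93 log2 from low-Myc to high-Myc, with a range of 0.58 to 2.85, and 11 of them were higher at 1 hour, where 29.1% of the 1246 tested genes with the element were. The 31 without it had a median of 1.63 with a range of 0.10 to 3.20, and 13 were higher at 1 hour, where 26.1% of the 8707 tested genes without it were. The ranges of the members with and without the element overlap over most of their length, and NOP16, the member with the largest change, had no match in its window.

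**Figure D1:**
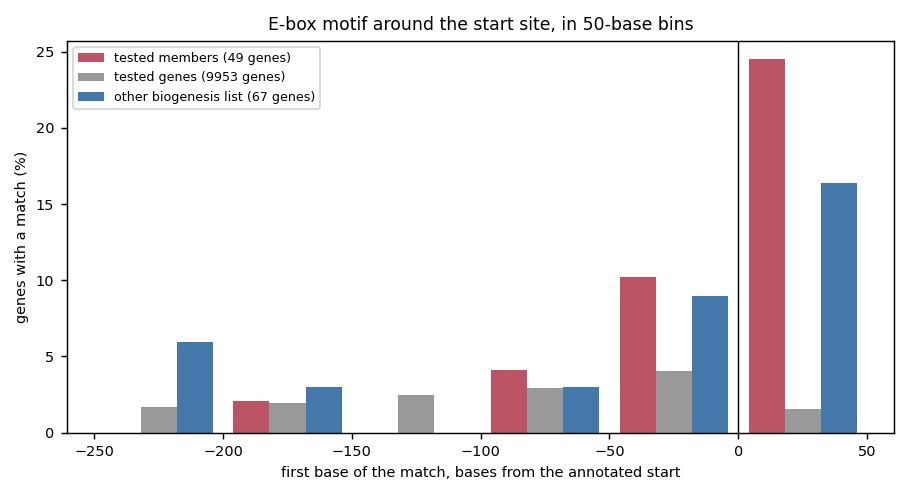
Share of genes (%) whose first base of an E-box match falls in each 50-base bin of the promoter window, for 49 tested members, 9953 tested genes and 67 tested genes of a second list of ribosome biogenesis factors. The bin just after the start holds 24.5% of members and 16.4% of the second list, against 1.56% of tested genes.

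After 24 hours of c-Myc release nearly every factor stood higher. On the equal-median scale 54 of the 55 tested members were above low-Myc in high-Myc and 0 were below it (0 also by unadjusted p under 0.05), where 37.7% of all tested genes were higher and 26.0% lower. The median member change was 1.86 log2, which is 3.62-fold, against 0.05 for all tested genes. By size, 46 members rose at least 2-fold and 15 at least 4-fold, where 1354 and 191 of the 12198 tested genes did. On that scale both high-Myc arrays lay above both low-Myc arrays in all 55, as they did in 45.0% of tested genes. Per cell, 55 of 55 were higher with a median of 2.87, where 91.0% of all genes were higher, 2.47% were lower and the median was 0.98. Besides the 2 scales, 7 other scalings were run, which used the values as deposited, quantile normalization, cyclic loess, centring on the tested genes, 1 ERCC factor per array, a loess span of 0.4 and the brighter ERCC probe sets. Under all 9 scalings 54 members were called higher, as were 28.3% of all tested genes, and the exception was RRP1, whose change ran from -0.11 to 1.13.

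**Figure D2:**
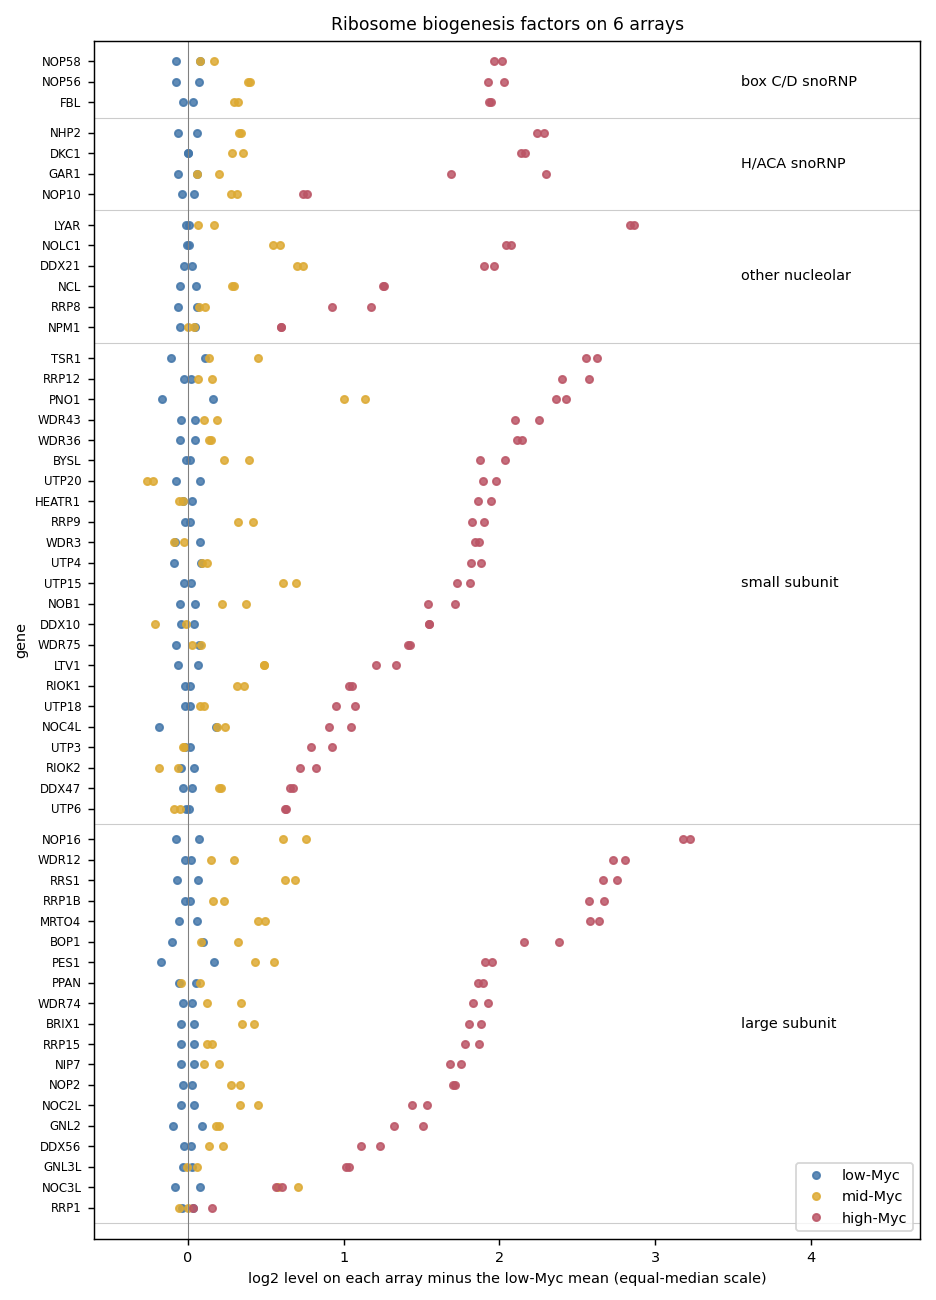
Level of each of the 55 tested factors on the 6 arrays, in log2 units relative to its low-Myc mean on the equal-median scale, with 1 point per array, grouped by role. The high-Myc points lie to the right of the low-Myc points for every factor, while the mid-Myc points lie close to low-Myc for most and their mean is highest, at 1.07, for PNO1.

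The box C/D core proteins changed in near unison at 24 hours. FBL, fibrillarin, the methyltransferase of these particles, read 1608 and 1554 in low-Myc, 1769 and 1765 in mid-Myc and 5527 and 5488 in high-Myc. NOP56, one of a pair of scaffold proteins that hold the guide RNA, read 876.6 and 797.1, then 996.9 and 984.2, then 3125 and 2866. NOP58, its partner, read 943.7 and 855.5, then 923.2 and 845.8, then 3211 and 3269. In each the high-Myc arrays stood far above the other 4. The changes from low-Myc to high-Myc on the equal-median scale were 1.94 ± 0.043 (SE of the fit), 1.98 ± 0.059 and 1.99 ± 0.059, so the 3 rose by amounts closer to each other than 2 SE. Limma's adjusted p was at most 5.84e-12. At 1 hour FBL (0.31, adjusted p = 0.000179 by limma) and NOP56 (0.40, adjusted p = 0.000306 by limma) had risen, while NOP58 at 0.13 was not called. The other NOP58 probe set read 0.33 at 1 hour, and the mean over its sets was called higher (0.23, adjusted p = 0.00603 by limma).

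The H/ACA core was less even. DKC1, dyskerin, the pseudouridine synthase, read 656.5 and 663.1 in low-Myc, 731.5 and 752.9 in mid-Myc and 2707 and 2616 in high-Myc. NHP2, a core RNA-binding subunit, read 1028 and 952.6, then 1142 and 1110, then 4287 and 4358. Both gained more than 4-fold, by 2.15 ± 0.051 and 2.27 ± 0.051 log2 (SE). GAR1, which helps release the modified RNA, read 332 and 365.1, then 331.4 and 356.2, then 1568 and 1014, a rise of 2.00 ± 0.137 with the widest duplicates of any member. NOP10, the smallest core subunit, read 1159 and 1109, then 1290 and 1227, then 1732 and 1737. Its change of 0.75 ± 0.050 was the smallest of the 4, and it was the only one of the 7 snoRNP core proteins under 2-fold. At 1 hour DKC1 (0.32), NHP2 (0.34) and NOP10 (0.30) were higher, whereas GAR1 (0.13, adjusted p = 0.522 by limma) was not called. The other probe set of GAR1 above the filter read 0.67 at 1 hour.

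All 23 tested small-subunit factors were higher at 24 hours than at 0 hours, where 37.7% of all tested genes were. Their median change was 1.77 log2, and 18 were at least 2-fold up, as 1354 of the 12198 tested genes were. TSR1, a GTPase-like factor of the late precursor, read 199.2 and 173.1 in low-Myc, 231.7 and 181.6 in mid-Myc and 1048 and 982.4 in high-Myc. RRP12, which takes part in export of the particle, read 174 and 170.3, then 175.3 and 160.7, then 938.3 and 820.8. PNO1, the RNA-binding partner of the final nuclease, read 214 and 171.9, then 384.1 and 341.9, then 942.6 and 889.1. Among these 3 only PNO1 had moved far by 1 hour, and all had high-Myc arrays clear of the rest. WDR43 read 132.7 and 126, then 134.6 and 124.1, then 565.2 and 499.6. WDR36 read 226.1 and 214.1, then 222.2 and 215.3, then 869.2 and 878.6. These 5 had the largest changes of the subgroup at 24 hours, of 2.59 ± 0.099, 2.49 ± 0.075, 2.39 ± 0.093, 2.18 ± 0.079 and 2.13 ± 0.065 log2 (SE) in the order named.

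At the lower end of the small-subunit group stood UTP6, DDX47 and RIOK2. UTP6, a subunit of the UTP-B complex, read 1429 and 1428 in low-Myc, 1227 and 1230 in mid-Myc and 2020 and 1987 in high-Myc. DDX47, a nucleolar RNA helicase, read 875.1 and 847.4, then 910.8 and 882.6, then 1256 and 1222. RIOK2, a kinase of the late precursor, read 153.1 and 163.6, then 126.9 and 134.9, then 256.5 and 235.2. Each was still higher at 24 hours, with changes of 0.63 ± 0.046, 0.66 ± 0.052 and 0.77 ± 0.080 log2 (SE) and limma adjusted p-values of at most 1.12e-06. The 15 other tested small-subunit factors rose by 0.86 (UTP3) to 1.96 (BYSL). Among them NOB1, the nuclease that makes the final cut of the small-subunit RNA, read 487.9 and 525.7 in low-Myc, 538.7 and 586 in mid-Myc and 1351 and 1498 in high-Myc. LTV1, an export and assembly factor, read 116.4 and 128.6, then 156.4 and 153.3, then 258.3 and 278.4. Its mid-Myc arrays lay between the other groups with no overlap, and those of NOB1 did too.

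The early complexes of the small-subunit route were set apart by subunit after the values had been seen. UTP-A binds the precursor first, and its 5 members in the list, HEATR1, WDR43, WDR75, UTP4 and UTP15, rose by a median of 1.85 log2 at 24 hours, from 1.42 for WDR75 to 2.18 for WDR43. The HEATR1 set used read 1.905, and its dimmer sets above the filter read 1.02, 0.36 and 0.10. UTP-B joins it as a scaffold, and its 4 listed members, WDR3, WDR36, UTP6 and UTP18, rose by a median of 1.43, from 0.63 for UTP6 to 2.13 for WDR36. The late factors BYSL, LTV1, NOB1, PNO1, RIOK1, RIOK2 and TSR1, which act on the nearly finished small subunit, rose by a median of 1.63. The range within UTP-B was wider than the distance between any of these medians, and the differences between the complexes were not tested.

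The large-subunit factors held the largest change of all members. NOP16, a nucleolar assembly factor, read 235.7 and 214.6 in low-Myc, 347 and 306.6 in mid-Myc and 1860 and 1893 in high-Myc, a rise of 3.20 ± 0.071 log2 (SE), or 9.19-fold. Per cell its change was 4.34. Ordered by rise on the equal-median scale, NOP16 was 9th of the 12198 tested genes. A second probe set for NOP16 above the filter read 2.95.

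WDR12, a member of the PeBoW complex that processes the large-subunit RNA, read 150.5 and 147.9 in low-Myc, 150.7 and 163.4 in mid-Myc and 903.9 and 940.1 in high-Myc. RRS1, which helps bring the smallest ribosomal RNA into the large-subunit precursor, read 181.4 and 167.2, then 255.6 and 239.6, then 1012 and 1061. RRP1B, a nucleolar processing protein, read 371.1 and 365.5, then 376.1 and 385.3, then 2142 and 1979. At 1 hour RRS1 had risen by 0.66 log2 and was called in 9 of 9 scalings. WDR12 at 0.22 and RRP1B at 0.20 were each called higher in 5 of the 9. At that time the other sets above the filter read -0.06 and -0.06 for WDR12 and 0.44 for RRP1B. MRTO4, which holds the place of the stalk protein, read 179.4 and 196.2, then 241.8 and 228.2, then 1026 and 1055. At 24 hours the 4 had risen by 2.77 ± 0.073, 2.71 ± 0.070, 2.62 ± 0.059 and 2.61 ± 0.068 log2 (SE). Their other sets above the filter, all dimmer, read 2.89 and 0.73 for WDR12, 0.66 for RRP1B and 1.90 for MRTO4. The other PeBoW subunits rose by less than WDR12 on the sets used, BOP1 by 2.27 ± 0.10 and PES1 by 1.93 ± 0.109. PES1 read 74.19 and 59.16, then 81.38 and 86.65, then 227.6 and 230.8, and the spread of its low-Myc arrays was among the wider ones. The 11 tested large-subunit factors outside the 5 largest and 3 smallest changes rose by 1.17 (DDX56, an RNA helicase) to 2.27 (BOP1). BRIX1, a factor of early large-subunit assembly, read 505.8 and 542.6, then 608.3 and 627.4, then 1767 and 1652. NOP2, a cytosine methyltransferase of the large-subunit RNA, read 118.2 and 114.7, then 129 and 131, then 348.9 and 342. In both genes each group stood apart from the next, with rises at 24 hours of 1.84 ± 0.059 and 1.71 ± 0.074.

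RRP1 was the 1 tested member not called at 24 hours on the equal-median scale. Its intensities were 105.6 and 111.8 in low-Myc, 95.5 and 96.98 in mid-Myc and 110.9 and 100.4 in high-Myc, a change of 0.10 ± 0.089 (SE, adjusted p = 0.366 by limma). The deposited values of low-Myc and high-Myc overlapped, and per cell the change was 1.08, close to the median of all genes. The other 2 probe sets for RRP1 above the filter read 1.81 and 1.64 on the equal-median scale. This gene's result therefore depends on the probe set, and the rule of the brightest one picked the set with the smallest change. NOC3L rose by 0.58 ± 0.070 and GNL3L, a nucleolar GTPase with 600.9 and 631.6 in low-Myc, 559.5 and 571.4 in mid-Myc and 1141 and 1139 in high-Myc, by 1.03 ± 0.056. Of the 19 tested large-subunit factors, 18 were higher, 17 of them at least 2-fold, with a median of 1.85. Of all 12198 tested genes, 37.7% were higher and 1354 were at least 2-fold up.

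The remaining 6 nucleolar proteins were all higher at 24 hours, where 37.7% of all tested genes were, by 0.60 (NPM1) to 2.85 (LYAR). LYAR, a nucleolar zinc finger protein, read 261.7 and 260.8 in low-Myc, 249.7 and 261.1 in mid-Myc and 1709 and 1711 in high-Myc, a rise of 2.85 ± 0.062 log2 (SE). NOLC1, a chaperone of snoRNPs, read 1174 and 1197, then 1583 and 1595, then 4574 and 4399, a rise of 2.06 ± 0.044. DDX21, an RNA helicase that acts in polymerase I transcription and processing, read 1551 and 1511, then 2274 and 2281, then 5225 and 5380, a rise of 1.93 ± 0.044. LYAR was still at its low-Myc intensity at 1 hour, while NOLC1 and DDX21 already stood above theirs. NCL, nucleolin, which binds the precursor RNA, read 3934 and 3703, then 4268 and 4142, then 8322 and 8236, a rise of 1.26 ± 0.040. RRP8, a base methyltransferase of the large-subunit RNA, read 120.6 and 132.3, then 124.7 and 118.3, then 219.3 and 257, a rise of 1.05 ± 0.092. The other RRP8 set above the filter, with a mean intensity of 42.85, read 0.06 at 24 hours and -0.30 at 1 hour, so the size of this rise depends on the set.

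NPM1, nucleophosmin, an abundant nucleolar chaperone, had the smallest rise of this subgroup. Its intensities were 7103 and 7690 in low-Myc, 6742 and 6763 in mid-Myc and 10240 and 10090 in high-Myc, a change of 0.60 ± 0.037 log2 (SE). The 6 probe sets for NPM1 spanned 0.41 to 2.42 at 24 hours, and the dimmest of them gave the largest value. At 1 hour they spanned 0.02 to 0.29, and the set used gave the smallest value. For 38 members more than 1 probe set passed the filter, and at 24 hours the sets of each had 1 sign in 38 of 38, so the choice of set touched the size of the rise and not its direction.

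After 1 hour the response was partial and uneven. On the equal-median scale 27 of the 55 members were higher in mid-Myc and 0 were lower, where 25.7% of all tested genes were higher and 3.39% lower. By unadjusted p under 0.05, 32 were higher and 1 was lower, where 4080 and 773 of the 12198 tested genes were. The median member change was 0.21 log2, or 1.16-fold, against 0.09 for all genes, and 42 members had both mid-Myc arrays above both low-Myc arrays, as 47.9% of tested genes did. Per cell 49 members were higher, where 62.7% of all genes were higher and 0.672% lower, with a median of 0.42 against 0.30. The split depends on the scaling. The values as deposited gave 18 members up and 8 down (32.7% and 14.5%), where 9.27% and 12.2% of all genes were. Quantile normalization gave 18 and 5, where the shares of all genes were 7.83% and 9.80%. Cyclic loess gave 17 and 6 against 8.63% and 8.48%, and centring on the tested genes gave 20 and 3 against 12.5% and 8.83%. The share of members lower was thus 5.45% to 14.5%, near that of all genes, under those 4 scalings, and the median of all genes lay between -0.06 and -0.01.

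**Figure D3:**
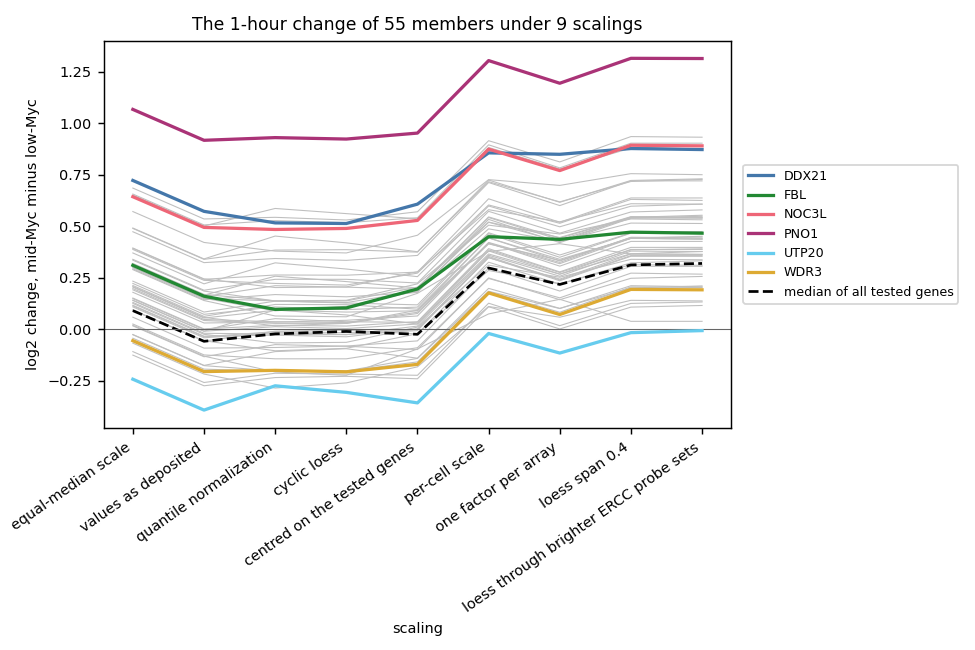
Change of each of the 55 members from low-Myc to mid-Myc (log2, vertical axis) under 9 scalings of the arrays (horizontal axis), with 6 members in colour and the median of all tested genes dashed. The size of the shift between scalings differs by member. From the equal-median scale to quantile normalization NPM1 goes from 0.02 to -0.21, and BYSL from 0.32 to 0.26. PNO1 stays at 0.92 or more in all 9 while UTP20 stays below 0.

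Under all 9 scalings 15 members were called higher at 1 hour, as were 848 of all tested genes (6.95%). They were PNO1, UTP15 and LTV1 of the small-subunit route, NOP16, RRS1, MRTO4, PES1, NOC2L, NOC3L and BRIX1 of the large-subunit route, DKC1, NHP2 and NOP56 of the snoRNPs, and DDX21 and NOLC1. In all 9 scalings 37 members lay above the median of all genes. The 11 that lay below it each time were DDX10, GNL3L, HEATR1, NPM1, PPAN, RIOK2, RRP1, UTP20, UTP3, UTP6 and WDR3. The choice of probe set also bears on this step. The sets of a member had 1 sign in 31 of the 38 with several, and the exceptions were HEATR1, RIOK2, WDR12, RRP1, MRTO4, NOC2L and RRP8. For MRTO4 and NOC2L, both among the 15, the dimmer set read -0.03 and -0.10 in place of 0.47 and 0.39. PES1, also among them, was not called without low-Myc replicate 2 (0.32, adjusted p = 0.0598 by limma).

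PNO1 had the largest 1-hour change, 1.07 ± 0.093 log2 (SE), or 2.1-fold, and was the only member past 2-fold at that time. Its other 2 probe sets read 0.53 and 1.04, so the gain was seen on each while its size differed. DDX21 followed at 0.72 ± 0.044, with 0.81 and 0.81 on its other sets. NOP16 changed by 0.69 ± 0.071, RRS1 by 0.66 ± 0.070 and UTP15 by 0.65 ± 0.080. UTP15, a subunit of UTP-A, read 82.69 and 86.08 in low-Myc, 124.5 and 114.7 in mid-Myc and 271.1 and 252.1 in high-Myc, and its mid-Myc arrays lay clear of both other groups. The other UTP15 sets read 0.20 and 0.40. For these 5 limma's adjusted p was at most 7.67e-05. The range of these changes over the 9 scalings was 0.92 to 1.32 for PNO1, 0.51 to 0.88 for DDX21, 0.53 to 0.94 for NOP16, 0.51 to 0.90 for RRS1 and 0.50 to 0.89 for UTP15.

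By role, the share called higher at 1 hour was 2 of 3 for box C/D, 3 of 4 for H/ACA, 9 of 23 for the small-subunit factors, 10 of 19 for the large-subunit factors and 3 of 6 for the remaining nucleolar proteins, beside the 25.7% of all tested genes. Within the small-subunit route 6 of the 7 late factors were higher, with a median of 0.32 log2, and the 1 that was not called was RIOK2 at -0.12. That count depends on the scaling, with 3 of 7 (LTV1, PNO1 and RIOK1) called after cyclic loess, quantile normalization or centring on the tested genes, and 2 (LTV1 and PNO1) in the values as deposited. In UTP-A 1 of 5 was higher, UTP15, and the median was 0.11. In UTP-B 0 of 4 were called by limma, and 1 had an unadjusted p under 0.05. The UTP-B values were 0.14 for WDR36, 0.09 for UTP18, -0.05 for WDR3 and -0.07 for UTP6. Per cell, however, 4 of 4 UTP-B members and 5 of 5 UTP-A members were higher, by medians of 0.23 and 0.35, near the 0.30 of all genes, of which 62.7% were higher. Differences between these subgroups were not tested.

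UTP20, a large scaffold protein of the small-subunit precursor, had the lowest 1-hour value and is singled out here after its values were seen. It read 74.42 and 67.56 in low-Myc, 53.94 and 54.11 in mid-Myc and 255.6 and 238 in high-Myc. Both mid-Myc arrays were below both low-Myc arrays, but the change of -0.24 ± 0.093 log2 (SE) was not called (adjusted p = 0.0663 by limma), and per cell it was -0.02. Over the 9 scalings it ran from -0.39 to -0.01 and was called lower in 3. At 24 hours the same probe set stood 1.94 above low-Myc. For 8 members, DDX10, HEATR1, NPM1, RIOK2, UTP20, UTP3, UTP6 and WDR3, at least 1 scaling called the 1-hour value lower. The values as deposited called all 8 lower (14.5% of members), where 12.2% of all genes were. HEATR1, UTP3, UTP6 and WDR3 were also each called higher in 3 of the 9 scalings, so their direction depends on the scaling.

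**Figure D4:**
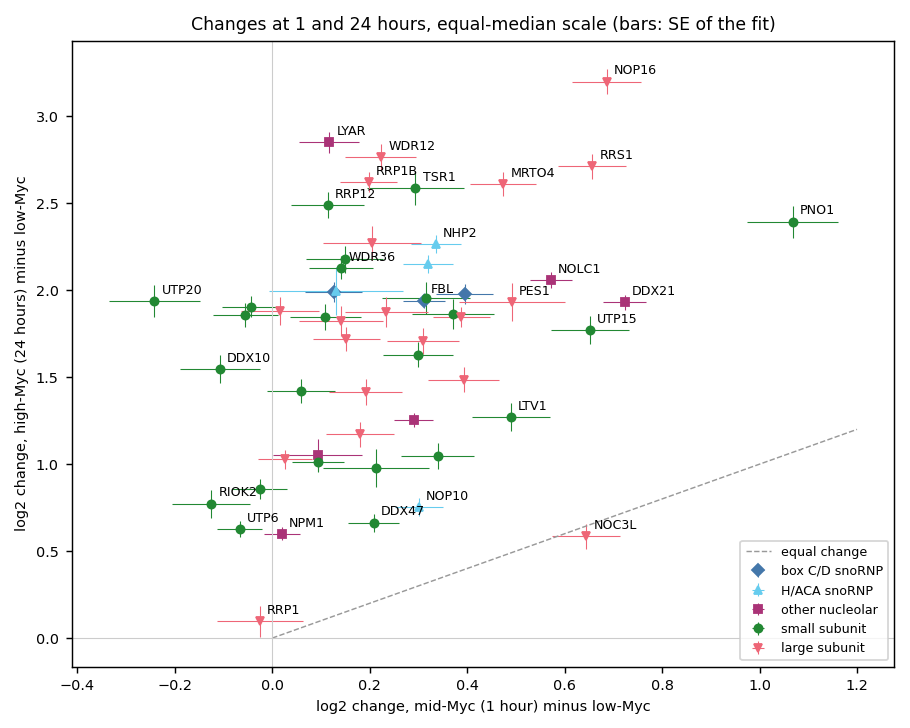
Change of the 55 members from low-Myc to mid-Myc (horizontal, log2) and from low-Myc to high-Myc (vertical, log2) on the equal-median scale, with SE bars from the fit, coloured by role. Both axes share the low-Myc arrays; NOC3L lies nearest the dashed line of equal change, and LYAR, WDR12 and RRP12 lie high on the vertical axis at 0.22 or less on the horizontal.

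From 1 to 24 hours 53 members rose, whether or not they had been called higher at 1 hour. On the equal-median scale these 53 were higher at 24 than at 1 hour and 0 were lower (0 also by unadjusted p under 0.05), against 33.3% and 30.9% of all tested genes, with a median of 1.49 log2 against 0.03. Of the 55, 54 had both high-Myc arrays above both mid-Myc arrays, as 41.3% of tested genes did. Per cell 55 of 55 were higher, where 81.8% of genes were higher and 6.48% lower, with a median of 2.36 against 0.72. This comparison shares its high-Myc arrays with the comparison against low-Myc.

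LYAR had the largest late change, 2.73 ± 0.062 log2 (SE), or 6.65-fold, followed by WDR12 at 2.54 ± 0.073 and NOP16 at 2.51 ± 0.071. LYAR's 1-hour value of 0.12 was not called, and per cell it was 0.35, near the 0.30 of all genes, so its rise was measured mainly between 1 and 24 hours. At the other end was NOC3L, a factor of early large-subunit precursors. It read 430 and 389.6 in low-Myc, 559 and 594.9 in mid-Myc and 568.3 and 546.8 in high-Myc. Its mid-Myc and high-Myc arrays overlapped while both lay above low-Myc, with a change of 0.64 ± 0.070 at 1 hour and -0.06 ± 0.070 (adjusted p = 0.486 by limma) after that. The second NOC3L probe set read 0.73 and -0.47 for the same steps. Per cell NOC3L still rose by 0.85 from 1 to 24 hours, under the 2.36 median of the members, and over the 9 scalings the late change ran from -0.15 to 0.91. It was called higher in the 4 ERCC-based scalings and lower in 1, centring on the tested genes (-0.15, adjusted p = 0.0459 by limma). The mean over its probe sets was also called lower (-0.26, adjusted p = 0.00234 by limma), so the direction of its late change depends on the scaling. RRP1 was the other member not called, at 0.12, and NOP10 had the smallest called change, 0.45 ± 0.050.

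Genes of the same pathway outside the list were set beside it. A second list of 79 ribosome biogenesis factors had 73 higher and 2 lower in high-Myc against low-Myc on the equal-median scale, where 37.7% and 26.0% of all genes were, with a median of 1.21 log2 against 1.86 for the members. RPF2, which acts together with RRS1, had the largest change of that list, 2.54 ± 0.079 (SE), next to 2.71 for RRS1. RUVBL1, an ATPase that helps assemble box C/D particles, rose by 2.36 ± 0.077 and MYBBP1A, a nucleolar protein, by 2.35 ± 0.079. RIOK3 fell by 0.74 on the log2 scale, from 1468 and 1480 to 796.3 and 804.5, in contrast to the related kinases RIOK1 at 1.04 and RIOK2 at 0.77. NOP53 fell by 0.12 and NAF1 at -0.14 was not called. Per cell 79 of 79 were higher (91.0% of all genes), RIOK3 by 0.32, so the falls hold on the equal-median scale and not per cell. At 1 hour 35 of the 79 were higher and 2 lower, a share of 44.3% next to 49.1% for the members and 25.7% for all genes. The element CACGTG stood after the start in 16.4% of the 67 genes of this list with a window.

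The RNA polymerase I machinery, which makes the precursor these factors act on, had 12 of 15 genes higher at 24 hours, beside 37.7% of all genes, with a median of 0.78 log2. POLR1B, the second largest subunit, rose by 2.74 ± 0.073 (SE) and POLR1C, a subunit shared with RNA polymerase III, by 2.45 ± 0.086, and both were named after their values were seen. TTF1, TAF1B and UBTF were not called. At 1 hour 6 were higher and 2 lower, beside 25.7% and 3.39% of all genes, and POLR1C had the largest value, 0.86 ± 0.086. In this list CACGTG stood before the start in 1 of the 14 genes with a window and after it in 0.

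Cytosolic ribosomal proteins, the parts that these factors put together, were mostly higher at both times on the equal-median and per-cell scales. On the equal-median scale 66 of the 68 tested were higher at 1 hour (25.7% of all genes were) with a median of 0.23 log2. At 24 hours 60 were (37.7% of all genes), with a median of 0.24. Per cell all 68 were higher at both times, where 62.7% and 91.0% of all genes were. Their per-cell medians of 0.26 and 0.84 lay below the 0.30 and 0.98 of all genes. From 1 to 24 hours 17 were higher and 23 lower on the equal-median scale, shares near the 33.3% and 30.9% of all genes, with a median of -0.01, next to 0.03 for all genes and 1.49 for the biogenesis factors over the same step. Per cell 68 of 68 rose over that step, as 81.8% of all genes did, by a median of 0.58 against 2.36 for the factors and 0.72 for all genes. In the values as deposited, the array medians of the ribosomal proteins moved little. They were 13.42 and 13.43 log2 in low-Myc, 13.54 and 13.50 in mid-Myc and 13.52 and 13.52 in high-Myc. Whether the rise of this list at 1 hour holds under the other scalings was not tested. The factors were much dimmer, with array medians of 7.745 to 9.88 log2 as deposited. Whether brightness bears on the size of these changes was not tested. RPL35A, at 2.06 ± 0.057 (SE), was the exception in size at 24 hours and was named after its values were seen.

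**Figure D5:**
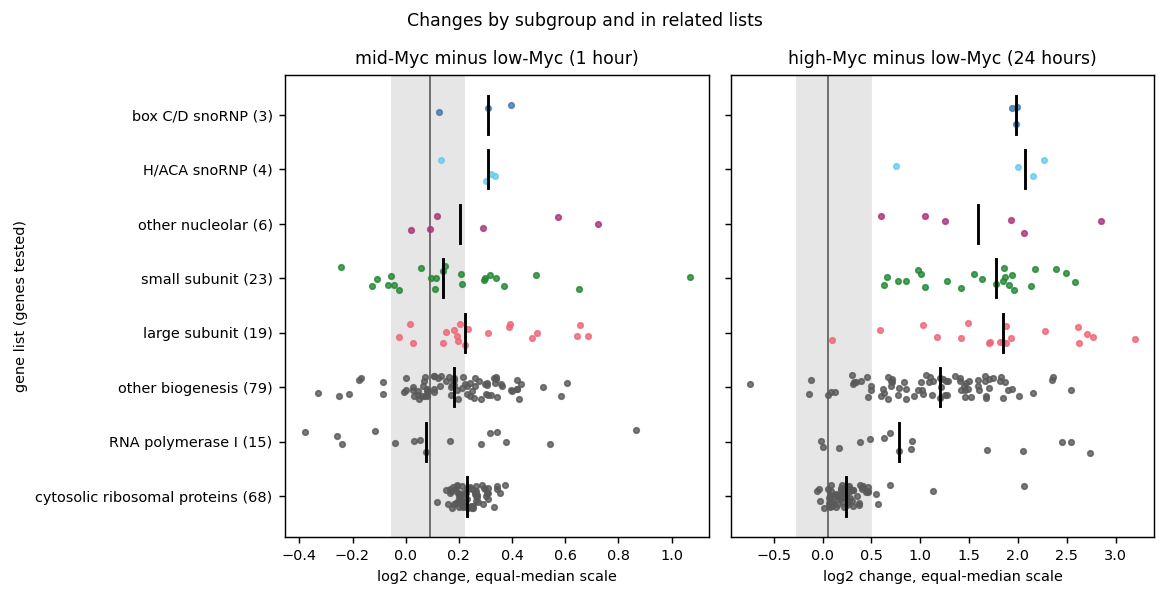
Change of single genes (points) and the median of each list (black bars), in log2 on the equal-median scale, at 1 hour (left) and 24 hours (right), with the median of all tested genes as a line and their middle quartiles shaded. At 24 hours the 5 role groups have medians between 1.59 and 2.07, the second biogenesis list 1.21, RNA polymerase I 0.78 and the ribosomal proteins 0.24.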

How the data were processed

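The table deposited by the authors holds linear MAS5 intensities of single probe sets, per the submitters' processing notes. For MAS5 no version or scaling target is given in the sources used here, and there are no detection calls. Of 49495 probe sets, 49293 were human, and 45278 of these carried 1 gene symbol and were named (1333 carried several and 2682 none), with symbols updated through Entrez identifiers for 45208. Low intensities include background: of 23 background probe sets the second brightest averaged 194, and 24 members were below that in low-Myc. The number of arrays limits the precision.

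Log2 values were centred on the median human probe set of each array. For the per-cell scale a loess fit (robust, span 0.7, degree 1) of each array's ERCC values on their 6-array mean was subtracted instead. Genes above the 40th percentile of human probe sets (33.8 intensity) were tested with limma 3.58.1 in R 4.3.3, in 1 fit of 3 group means. The fit used a variance trend, and its two-sided p-values were adjusted over 12198 genes after Benjamini and Hochberg. That gave 12.9 degrees of freedom per gene on the equal-median scale and 9.24 per cell. The steps were tested on simulated data. Alternatives covered the filter, the probe set, a pseudocount of 16, the trend, the replicate number, the groups fitted, each array left out and other scalings.

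The members and lists were chosen with earlier results of these data known, so lists are described by counts and medians with no test of their own. Named with values were all snoRNP and other nucleolar members, in each subunit group the 5 largest and 3 smallest changes at 24 hours, the 5 largest at 1 hour, the 3 largest and 3 smallest from 1 to 24 hours, members that failed the filter or were not called at 24 hours, and the 3 largest and 3 smallest of the second biogenesis list. Genes outside this rule were named after their values were seen. Promoter bases before the start were to be printed. Since most matches lay after it, the 12 stretches there were printed instead, a choice made after the search.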

Additional observations from a re-analysis of the deposited data

How the results depend on the processing

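For high-Myc against low-Myc and high-Myc against mid-Myc, the number of members called higher stayed within 1.5 times its value in every alternative run. For mid-Myc against low-Myc on the equal-median scale it was 27, and 17 with cyclic loess. Leaving out 1 array at a time gave 20 to 28 for that count, 54 each time at 24 hours and 53 each time from 1 to 24 hours, and per cell 46 to 50, 55 and 55. The lowest value, 20, came without low-Myc replicate 2. Where this left 1 array in a group, it was assumed to vary like the others.

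Same-numbered arrays did not deviate together (correlations of 0.002, -0.003 and -0.002), so the replicate numbers pair nothing. With the replicate block the counts were 54, 29 and 53, and per cell 55, 49 and 55.

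Among single members, NPM1 at 1 hour turned from 0.02 to -0.22 with cyclic loess, -0.21 with quantile normalization and -0.13 as deposited. The mean over all NPM1 probe sets was instead called higher on the equal-median scale (0.18, adjusted p = 0.00283 by limma). With the mean over all probe sets, DDX47 from 1 to 24 hours turned from 0.46 to -0.053, and WDR3 at 1 hour per cell from 0.18 to -0.071. Both means include a dim probe set below the filter (8.226 and 22.64 intensity). No depth applies to arrays, and dim members carry background signal.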
